A study of Drosophila melanogaster with 8 samples.

Results

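The genes described here are 10 members of the EGF receptor pathway of Drosophila melanogaster and of the feedback that limits it: spi, vn, rho, Egfr, aos, kek1, sty, Mkp3, pnt and aop. They were taken by name from the Ensembl annotation BDGP6.54, which uses dm6 coordinates, and are 10 of 18358 genes and of 13986 protein-coding genes. Chromatin binding of NELF-E was measured by ChIP-seq (chromatin immunoprecipitation and sequencing) in Kc167 cells, a female hemocyte-like line made from embryos. In the AGO2 knockdown group, cells received 100 pmol of an siRNA that targets AGO2 (Argonaute2, a protein loaded with small RNAs), and mock cells were transfected with neither siRNA nor dsRNA. Both groups were taken 3 days after transfection, with 2 replicates each. The data are 4 peak lists, 1 per library, and every peak over a transcript start or a gene body of the members was read from them. A peak list holds no AGO2 level, so the depletion itself was not checked here.

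NELF-E belongs to the Negative Elongation Factor, which keeps paused RNA polymerase II just downstream of the start of transcription until the polymerase is released into the gene. Genes of developmental signalling are classic sites of such pausing in Drosophila. In the EGF receptor pathway, a ligand binds the receptor Egfr, which signals through Ras, Raf, MEK and ERK to ETS family factors in the nucleus. Several genes switched on by this signal encode its own inhibitors, so that the pathway limits its reach in a tissue.

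The stretches printed here run from 60 bp before an annotated transcript start to 30 bp into the transcript, and were read from the RefSeq copy of dm6. They show every annotated start of rho, aos, kek1, pnt, aop, Mkp3 and sty. These are the 6 genes whose start peaks ranked highest by score on average over the 4 lists, together with Mkp3, and for Mkp3 and sty a start with a peak in all 4 libraries stands beside a start of the same gene with none. Capitals mark matches to 4 motifs, each searched on both strands. The repeat that GAGA factor binds was written as GAGAG, which reads CTCTC when it lies on the other strand. The initiator was searched as TCAGT, while the letters for the TATA box were TATAAA and those for 1 form of the pause button were CGGACG.
rho, bound: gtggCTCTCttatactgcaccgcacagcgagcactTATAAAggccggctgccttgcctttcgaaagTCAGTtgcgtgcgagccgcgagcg
aos, bound: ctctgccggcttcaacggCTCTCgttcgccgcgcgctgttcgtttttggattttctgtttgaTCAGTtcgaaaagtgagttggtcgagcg
kek1, bound: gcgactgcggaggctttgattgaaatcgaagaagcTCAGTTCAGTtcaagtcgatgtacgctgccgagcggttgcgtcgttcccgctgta
pnt distal start, bound: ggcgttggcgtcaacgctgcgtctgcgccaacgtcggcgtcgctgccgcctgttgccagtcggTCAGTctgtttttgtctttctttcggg
pnt middle start, bound: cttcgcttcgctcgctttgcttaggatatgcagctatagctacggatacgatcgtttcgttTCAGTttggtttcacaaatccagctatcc
pnt proximal start, bound: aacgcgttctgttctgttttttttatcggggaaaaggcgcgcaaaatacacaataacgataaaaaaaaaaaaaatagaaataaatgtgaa
aop upstream start, bound: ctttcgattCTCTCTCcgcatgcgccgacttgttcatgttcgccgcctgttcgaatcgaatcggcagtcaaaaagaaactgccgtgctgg
aop downstream start, bound: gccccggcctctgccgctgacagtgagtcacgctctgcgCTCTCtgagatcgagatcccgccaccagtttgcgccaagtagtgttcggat
Mkp3 upstream start, bound: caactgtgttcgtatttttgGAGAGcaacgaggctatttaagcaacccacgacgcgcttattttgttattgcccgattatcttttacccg
Mkp3 downstream start, not bound: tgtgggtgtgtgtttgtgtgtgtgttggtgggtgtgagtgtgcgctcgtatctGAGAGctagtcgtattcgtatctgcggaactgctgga
sty downstream start, bound: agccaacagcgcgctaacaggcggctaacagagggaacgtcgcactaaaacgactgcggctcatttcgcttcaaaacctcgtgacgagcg
sty upstream start, not bound: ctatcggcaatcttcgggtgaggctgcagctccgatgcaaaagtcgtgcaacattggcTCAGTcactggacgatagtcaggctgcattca
The rho stretch is chr3L:1463751-1463840 on the + strand, and all others are on the − strand. The aos stretch is chr3L:16483621-16483710 and the kek1 stretch chr2L:12822758-12822847. Those of pnt are chr3R:23346138-23346227, chr3R:23314286-23314375 and chr3R:23295209-23295298, and those of aop are chr2L:2178725-2178814 and chr2L:2161498-2161587. The Mkp3 pair is chr3L:19086397-19086486 and chr3L:19072367-19072456, and the sty pair chr3L:3417932-3418021 and chr3L:3424906-3424995.

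In the wider window of 250 bp before to 50 bp after a start, GAGAG on either strand was found at 16 of 18 member starts, against 33.1% of 19630 protein-coding starts. TCAGT was found at 10 of 18 member starts, against 52.1% of all starts. TATAAA was found at 6 of 18, against 42.2%, and CGGACG at 2 of 18, against 6.13%. CGTG, a part of the downstream promoter element region, was found at 16 of 18 member starts, against 68.1%. A peak covered 13 of the member starts and 4146 of all starts in all 4 libraries. Among these, GAGAG was found at 12 of 13 member starts, against 43.3% of the covered starts, and CGTG at 12 of 13, against 75.3%. TCAGT was found at 6 of the 13, against 52.4%, and TATAAA at 5 of 13, against 35.6%. CGGACG was found at 1 of the 13, a start of aop, against 9.38%. At rho, TATAAA began 25 bp before the start and TCAGT at base 7 of the transcript. At aos and at the distal and middle starts of pnt, TCAGT began at base 3, 4 and 2 of the transcript. At kek1 it began 25 and 20 bp before the start. It also lay near starts without a peak: at the upstream sty start and the downstream Egfr start it began 2 bp before the transcript. The covered starts of sty, vn, spi, aop and Mkp3 held no TCAGT in this window. Both bound and unbound starts of Mkp3 held GAGAG in the printed stretch. CGTG and TATAAA were counted anywhere in the window on either strand. A sense CGTG inside the transcript was found only at rho, the sty starts, the distal pnt start, the most downstream spi start, and the upstream Egfr and aop starts. Apart from rho, each TATAAA began at position -129 or further upstream. These are matches of letters in a window, given as a description, and not calls of a promoter element.

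NELF-E had a peak at a start of 9 of the 10 genes in all 4 libraries, and the exception was the receptor gene Egfr. A peak was at a start when it overlapped the 1500 bp on either side. Across protein-coding genes, 41.7% (5828 of 13986) had such a peak in all 4 libraries. The members had a median of 2 annotated starts, against 1 for genes with a start peak in all 4 libraries. Each start adds a window in which a peak counts, and the part of this in the comparisons was not tested. Each gene's strongest start peak was placed in its own list by its score, as a percentile of the peaks in that list. By this measure sty, aos, kek1, rho, pnt and aop lay above percentile 90 in all 4 lists, against 4.1% of protein-coding genes (574 of 13986). The threshold of 90 was chosen after the values were seen, so this count is a description. The median percentile over the 9 bound members was 93.1 and 96.6 in knockdown replicates 1 and 2 and 95.4 and 94.6 in mock replicates 1 and 2, whereas the median over all 5828 genes was 62.4 and 65.2 in the knockdown libraries and 72.2 and 67.7 in the mock libraries. Below, paired values are given for replicates 1 and 2 in that order.

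**Figure D1:**
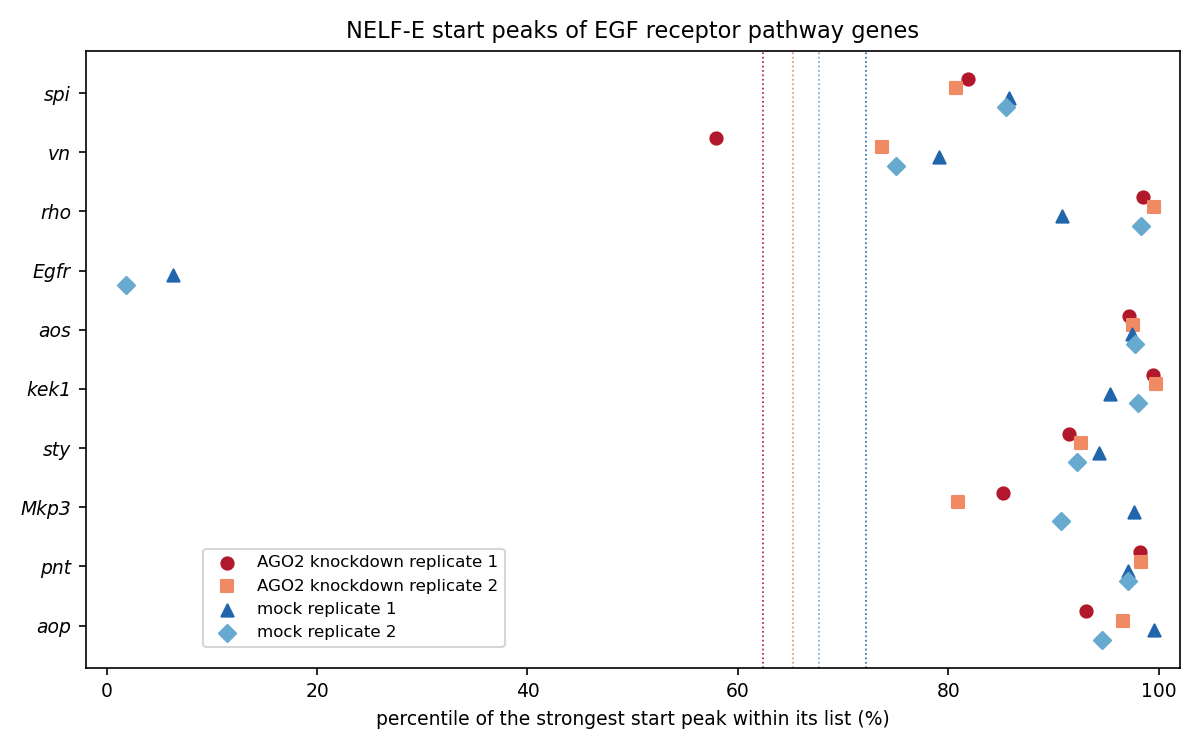
Percentile of each gene's strongest start peak within its own list (x axis, %), for the 10 genes in order of their role (y axis), with 1 point per library, and dotted lines at the median over all 5828 genes with a start peak in all 4 libraries. Of the 9 genes with a peak in all libraries, every point lies at or above percentile 57.9, while Egfr has points for the mock libraries alone, at 6.3 and 1.8.

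The libraries differed in depth. The genome-wide background at a summit was 1.18 and 1.48 fragments in the knockdown libraries, against 4.46 and 2.19 in the mock libraries, and the lists held 5904 and 6206 peaks, against 7944 and 6933. Each mock library was deeper than either knockdown library, so depth and treatment cannot be told apart. The number of fragments at each summit was recovered from the deposited fold and p-value, and the highest summit held 294 fragments in each of the 4 lists. This is 2 times 147, the length in bp of the shortest peak. If reads were extended to 147 bp, it is the pileup reached when every position on both strands keeps 1 read after duplicate removal. The extension length is not given, so this ceiling is inferred. In mock replicate 1 the fold and p-value fitted whole fragments only after multiplication by 0.919, and its backgrounds are given here after division by that factor, so in fragments. The highest summit is taken here as a ceiling: among the 9 bound members, 1 and 2 summits lay over 80% of it in the knockdown libraries, against 6 and 3 in the mock libraries. Among all 5828 genes the share over 80% was 1.18% and 1.41%, against 13.7% and 4.12%. The 4 measures set side by side for each gene were the percentile, the summit fragments, the authors' fold over the local background, and the summit fragments divided by the genome-wide background after adjustment for the ceiling. The start peaks of srp, Hml, Pxn and vkg, hemocyte genes, were present in all 4 libraries, which describes occupancy and not expression.

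**Figure D2:**
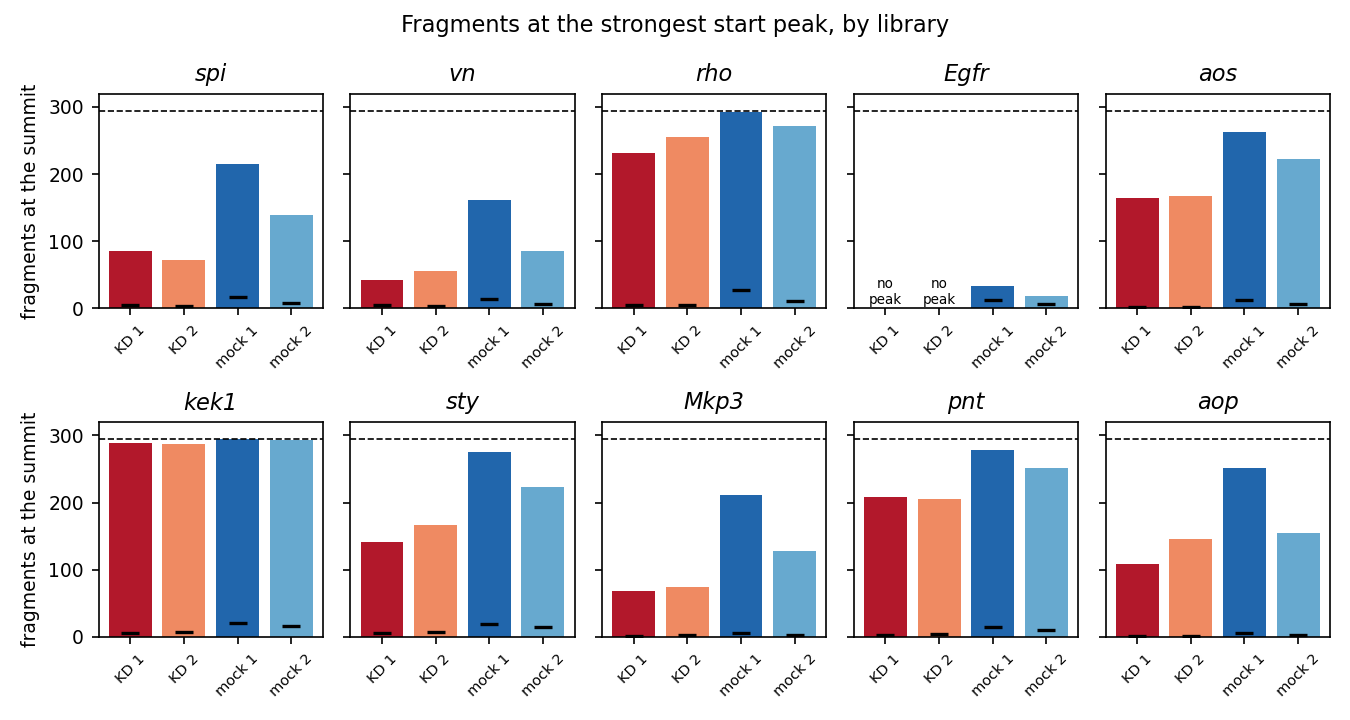
Fragments at the summit of the strongest start peak (y axis) in the 2 AGO2 knockdown and the 2 mock libraries (bars), for the 10 genes, with the local background as a black tick and the ceiling of 294 fragments as a dashed line. The bars of kek1 lie between 287 and 294 in all 4 libraries, while those of vn lie between 42 and 162.

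By percentile, the 2 ligand genes held the lowest start peaks of the 9 in every list. The gene spi (chr2L:19567900-19577315, − strand) encodes Spitz, a TGF-alpha-like ligand that is cut from the membrane before it can signal. Its strongest peak held 85 and 72 fragments in knockdown cells, against 215 and 139 in mock cells, and lay at percentile 81.9 and 80.7, against 85.8 and 85.5. Both knockdown percentiles were below both mock percentiles, with means of 81.3 ± 0.9 and 85.6 ± 0.225 (SD, n = 2 each). Its fold ran the other way, with 16.1 and 17.9 in knockdown cells and 11.7 and 15.5 in mock cells. The groups thus did not overlap in percentile or in fold, and their order depended on which was read. The ceiling-adjusted heights were 85.0 and 55.8 in knockdown cells, against 86.6 and 85.9 in mock cells. They did not overlap, but the closest pair differed by only -0.02 on the log2 scale. Without the ceiling adjustment, the fragments over the genome-wide background (depth-scaled heights) overlapped. They were 72.0 and 48.6 in knockdown cells and 48.2 and 63.5 in mock cells.

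The gene vn (chr3L:5813338-5845664, − strand) encodes Vein, a secreted neuregulin-like ligand that needs no cleavage. It had a single peak, of 42 and 55 fragments in knockdown cells, against 162 and 86 in mock cells. Its percentile was 57.9 and 73.7 in knockdown cells, against 79.1 and 75.0 in mock cells, the lowest values among the 9 bound members in each of the 4 lists. The fold of vn overlapped between the groups, with 7.28 and 14.2 in knockdown cells and 10.7 and 12.0 in mock cells. After the depth and ceiling adjustment, vn stood at 38.4 and 41.1 times the background in knockdown cells, against 52.8 and 46.5 in mock cells. The mean log2 difference was -0.32. Without the ceiling adjustment its depth-scaled heights overlapped, at 35.6 and 37.2 in knockdown cells and 36.3 and 39.3 in mock cells.

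The gene rho (chr3L:1463811-1468944, + strand) encodes Rhomboid, the intramembrane protease that releases Spitz. Its single start held 231 and 255 fragments in knockdown cells, against 292 and 271 in mock cells. It ranked 91 and 23 by score in the knockdown lists, against 728 and 121 in the mock lists, which is percentile 98.5 and 99.6, against 90.8 and 98.3. The local background under the peak was 4.62 and 4.75 fragments in knockdown cells, against 27.2 and 11.6 in mock cells, and the fold was 41.3 and 44.5, against 10.4 and 21.6. Of the members, rho was the only one whose 2 knockdown values lay above both mock values by percentile, fold and ceiling-adjusted height. Over the 5828 genes with a start peak in every library, the single shares were 6.88%, 32.6% and 12.8%. The joint share was not computed. The order by ceiling-adjusted height was not firm. The adjusted heights were 384 and 401 times the background in knockdown cells, against 329 and 342 in mock cells, a mean log2 difference of 0.23. In mock replicate 1 the summit stood 2 fragments under the ceiling, where the adjustment is steep: 1 more fragment would have given 375 and 1 fewer 302, and a summit at the ceiling is given 420, above both knockdown values. A noncoding RNA gene on the other strand, lncRNA:CR44842, starts 1010 bp upstream of rho and runs away from it. The summit lay 1 to 8 bp past the rho start in all 4 libraries.

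Egfr, the receptor gene (chr2R:21522420-21559977, + strand), has 2 annotated starts, and neither had a peak in either knockdown library. In the mock libraries a peak lay 79 and 94 bp before the upstream start. It held 34 fragments on a local background of 13.1 in mock replicate 1 and 18 on 6.25 in mock replicate 2, with a fold of 2.48 and 2.62. These peaks stood at percentile 6.3 and 1.8, near the bottom of their lists. A start peak in the 2 mock lists but in no knockdown list was found for 2.3% of protein-coding genes (322 of 13986) and for 1 of the 10 members. Over those 322 genes the median percentile was 25.2 in mock replicate 1 and 14.2 in mock replicate 2, so the Egfr peak was weak among them as well. Scaled to the depth of the knockdown libraries, the peak of mock replicate 1 would hold 9.0 fragments on 3.45 and 11.3 on 4.33, so a difference beyond depth was not detectable from the lists. The start of CG30289, on the other strand, lies 572 bp from that of Egfr, and the summits were 493 and 478 bp before it. The nearest summit to the downstream start of Egfr was 24302 to 24828 bp away.

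The 4 genes for inhibitors that act on the ligand, the receptor or the cascade all had peaks at their starts. The gene aos (chr3L:16470386-16483650, − strand) encodes Argos, a secreted protein that binds Spitz and keeps it from the receptor. Its percentile was 97.2 and 97.6 in knockdown cells, against 97.5 and 97.8 in mock cells, so the groups overlapped. Its summit held 164 and 167 fragments in knockdown cells, against 263 and 222 in mock cells. The fold of aos was 60.4 and 55.3 in knockdown cells, against 20.2 and 30.7 in mock cells, on local backgrounds of 1.73 and 2.04, against 12.0 and 6.25. After adjustment for depth and the ceiling the groups overlapped, at 203 and 167 in knockdown cells and 148 and 189 in mock cells.

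The gene kek1 (chr2L:12817000-12822787, − strand) encodes a transmembrane protein with leucine-rich repeats that binds the receptor and blocks it. It held the tallest summits of the members in every library, 288 and 287 fragments in knockdown cells and 294 and 293 in mock cells, which is 97.6% to 100.0% of the ceiling. The local background under the peak was 6.35 and 7.02 fragments in knockdown cells, against 20.7 and 15.6 in mock cells. By score kek1 ranked 28 and 16 in the knockdown lists, against 369 and 143 in the mock lists, with a fold of 39.3 and 35.9, against 13.6 and 17.7. The ceiling-adjusted heights were 970 and 742 in knockdown cells and 420 and 763 in mock cells. They overlapped, and the mock replicate 1 value is that of a summit at the ceiling, taken as 0.5 fragments below it. The order of kek1 between the groups by true binding cannot be read from these lists.

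The gene sty (chr3L:3401153-3424935, − strand) encodes Sprouty, an intracellular inhibitor of receptor tyrosine kinase signalling. The downstream of its 2 starts was bound, with 141 and 166 fragments in knockdown cells, against 276 and 223 in mock cells. Its percentile was 91.5 and 92.6 in knockdown cells and 94.3 and 92.2 in mock cells, so the groups overlapped. The fold was higher in knockdown cells, at 22.9 and 19.7, against 14.2 and 14.6, but the ceiling-adjusted height was lower, at 163 and 165, against 184 and 191. The upstream start had no peak in any library, and the nearest summit lay 4481 to 6978 bp downstream of it. A pair of further sites, an intronic one 2483 bp before the bound start and one 660 bp after it, appeared in the mock lists alone. At the intronic site the mock summits counted 98 and 44 fragments, and at the other site 64 and 31. Scaled to the depth of the knockdown libraries, the intronic site of mock replicate 1 would hold 25.9 fragments on a background of 5.18 and 32.5 on 6.5. The other site would hold 16.9 on 4.03 and 21.2 on 5.06. This scaling used mock replicate 1 alone. In mock replicate 2 the intronic site had a background of 9.82 and a fold of 4.16, and the other site 11.6 and 2.54. For comparison, a site of spi was called in the knockdown libraries with 16 fragments on 3.75 and 18 on 4.07, a fold of 3.58 and 3.74. What differed at these sites beyond depth was not tested.

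The gene Mkp3 (chr3L:19066155-19086426, − strand) encodes a phosphatase that removes the activating phosphates from ERK. Its upstream start was bound, with 69 and 75 fragments in knockdown cells, against 211 and 128 in mock cells. Its percentile was 85.2 and 80.9 in knockdown cells, against 97.7 and 90.7 in mock cells. The difference of means was -11.1, against a median of -4.73 over the 5828 genes with a start peak in every library. The fold was 31.9 and 17.3 in knockdown cells, against 32.5 and 35.6 in mock cells, and the ceiling-adjusted height 66.6 and 58.5, against 83.4 and 76.7. Mkp3 was the only member whose 2 knockdown values lay below both mock values in all 3 of these measures. Over the same 5828 genes the single shares were 43.1%, 14.9% and 27.0%, and the joint share was not computed. The closest pair of knockdown and mock folds differed by -0.03 on the log2 scale, and without the ceiling adjustment the depth-scaled heights overlapped, at 58.5 and 50.7 in knockdown cells and 47.3 and 58.4 in mock cells. The summit lay 42 bp past the start in 3 libraries and 37 bp past it in knockdown replicate 2. The downstream start had no peak in any library.

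Both nuclear ETS genes were bound at every annotated start. The gene pnt (chr3R:23290231-23346167, − strand) encodes Pointed, the activator that ERK switches on. Its distal start carried 208 and 206 fragments in knockdown cells, against 279 and 251 in mock cells, at percentile 98.2 and 98.3, against 97.1 and 97.1. The middle start was weaker, with 89 and 75 fragments in knockdown cells and 199 and 117 in mock cells. The proximal start was nearly as strong as the distal one, with 188 and 186 fragments in knockdown cells, against 263 and 230 in mock cells. At that start the summit lay 249 and 183 bp upstream of the annotated position in knockdown cells and 225 and 250 bp upstream in mock cells, while at the other starts it lay within 56 bp. The fold at the distal start was 50.0 and 42.7 in knockdown cells, against 17.2 and 21.5 in mock cells, and the ceiling-adjusted heights overlapped, at 306 and 240 in knockdown cells and 196 and 258 in mock cells.

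The gene aop (chr2L:2156484-2178754, − strand) encodes Yan, the repressor that ERK signalling removes. Its upstream start held 108 and 146 fragments in knockdown cells, against 251 and 154 in mock cells, and its downstream start 94 and 116, against 230 and 177. At the upstream start the percentile was 93.1 and 96.6 in knockdown cells and 99.6 and 94.6 in mock cells, so the groups overlapped. The local background there was 1.18 and 1.63 fragments in knockdown cells, against 6.53 and 2.68 in mock cells, and the fold was 49.9 and 55.9, against 33.1 and 42.1. The ceiling-adjusted heights overlapped, at 114 and 136 in knockdown cells and 127 and 99.6 in mock cells.

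Set over the 9 bound members, the order of the groups depended on the measure. By percentile, both knockdown values lay above both mock values for 3 members (kek1, rho and pnt), against 6.88% of 5828 genes, and below for 3 (spi, vn and Mkp3), against 43.1%. By fold they lay above for 7 (spi, rho, aos, kek1, sty, pnt and aop), against 32.6% of genes, and below for 1 (Mkp3), against 14.9%. By ceiling-adjusted height they lay above for 1 (rho, where a mock summit stood 2 fragments under the ceiling), against 12.8% of genes, and below for 4 (spi, vn, sty and Mkp3), against 27.0%. For spi the closest pair of these heights was nearly tied, at -0.02 on the log2 scale. Before the ceiling adjustment, knockdown heights scaled for depth lay above for 6 members and below for 0. No share over all genes was computed for these counts. The median difference over the members was -1.18 in percentile, against -4.73 over all genes. It was 0.56 in log2 fold, against 0.14, and 0.14 in log2 ceiling-adjusted height, against -0.06. Neither percentile nor fold is adjusted for the ceiling, which member summits neared more often than those of all genes. In mock replicate 1, 6 of the 9 lay over 80% of it, against 13.7% of genes. The part of this in the comparisons was not tested. With 2 libraries against 2, the two-sided exact permutation test cannot give a p below 0.333. That value was reached in 19 of the 27 tests (9 genes by 3 measures), and the lowest Benjamini-Hochberg adjusted p was 0.473, so no member is shown to differ between AGO2 knockdown and mock cells.

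**Figure D3:**
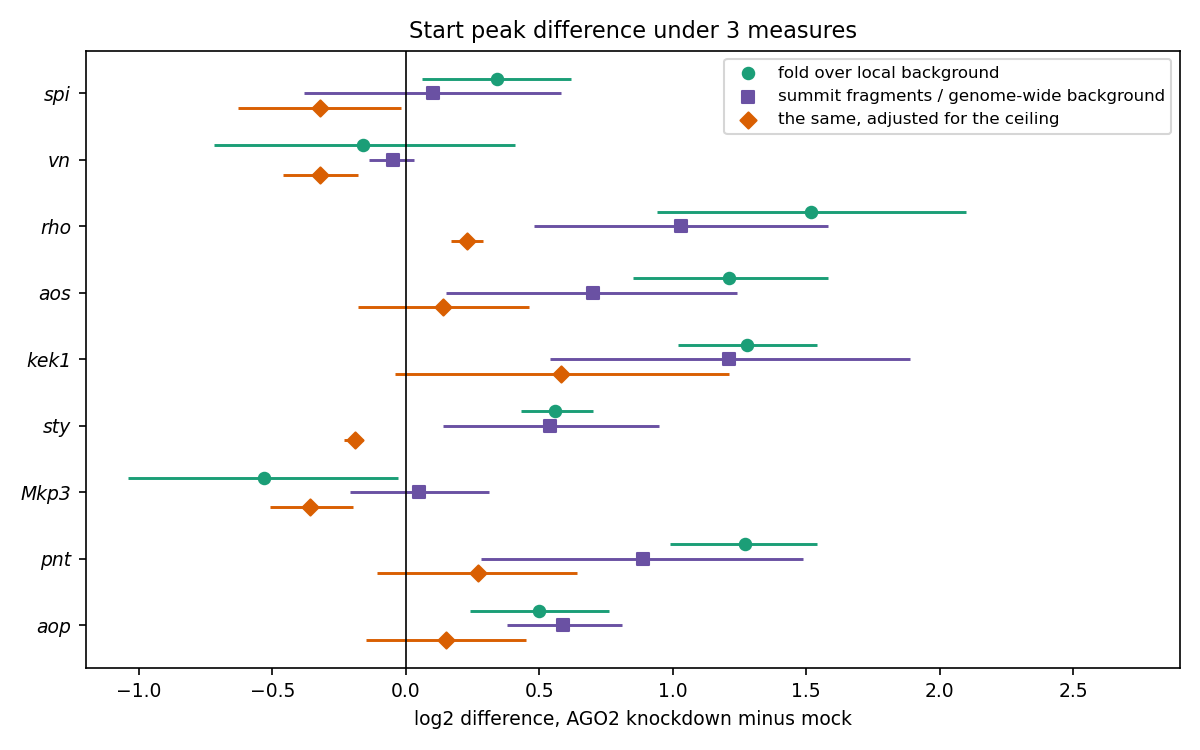
Log2 difference between AGO2 knockdown and mock libraries (x axis) at the strongest start peak of the 9 bound genes (y axis) for 3 measures, with points at the difference of mean logs and lines from the lowest to the highest of the 4 knockdown and mock pairs. The fold of rho lies at 1.52 and its ceiling-adjusted height at 0.23, whereas Mkp3 lies at -0.53 and -0.36.

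Summits of the members lay close to their starts. The strongest summit was within 250 bp of a start for 9 of 9 members in every library, and over all genes for 64.8% to 65.5%. Its median position over the members was 9 and 30 bp past the start in knockdown cells and 19 and 25 bp in mock cells. Over all genes with a summit inside the same 250 bp, the median was 81 and 81 bp in knockdown cells and 76 and 79 bp in mock cells. The peaks were also wide, with a median of 907 and 965 bp over the members in knockdown cells, against 1143 and 1054 bp in mock cells, while over all genes it was 452 and 512 bp, against 618 and 501 bp. Depth and summit height differed as well, and their part in the width was not tested. Member genes were long, with a median of 21271.5 bp, against 3167.5 bp for genes with a start peak in all 4 libraries.

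Of the 18 annotated starts of the members, 13 (72.2%) were covered by a peak in all 4 libraries, against 21.1% of 19649 protein-coding starts. The starts left uncovered in every library were the downstream starts of Egfr and Mkp3 and the upstream starts of sty and spi. At spi, both downstream starts were covered in all 4 libraries. The weaker of these held 41 and 31 fragments in knockdown cells, against 127 and 78 in mock cells. Near the uncovered upstream start of spi, 2 sites were present in mock replicate 1 alone, with 45 and 46 fragments, and the first of these had its summit 92 bp past the start of msb1l, a gene on the other strand that starts 386 bp from spi.

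Peaks over the gene bodies and start windows fell into 34 sites with 111 peaks in all, of which 18 were present in all 4 libraries. The same merging over every protein-coding gene gave 7873 sites, of which 61.6% were in all 4 libraries. Another 4 member sites were shared by the mock lists alone (1 at Egfr, 2 at sty and 1 at pnt), against 7.95% of all sites, and 0 were shared by the knockdown lists alone, against 0.152%. Mock replicate 1, the deepest library, alone held 7 of the 34, against 13.0% of all sites. Of the rest, 4 were in 3 lists and 1, upstream of kek1, in knockdown replicate 2 and mock replicate 1. The gene pnt held 13 of the sites, 5 of them in all 4 libraries. Outside the start windows there were 12 sites, 11 of them intronic, and 2 of the 12 were present in all 4 libraries. The intronic pnt site lay 11.6 kb past the distal start, with 31 and 38 fragments in knockdown cells and 132 and 70 in mock cells, and its summit was 747 to 783 bp before the start of lncRNA:CR46090. The intronic Mkp3 site lay 5 kb past the upstream start, with 12 and 22 fragments in knockdown cells, against 61 and 26 in mock cells.

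**Figure D4:**
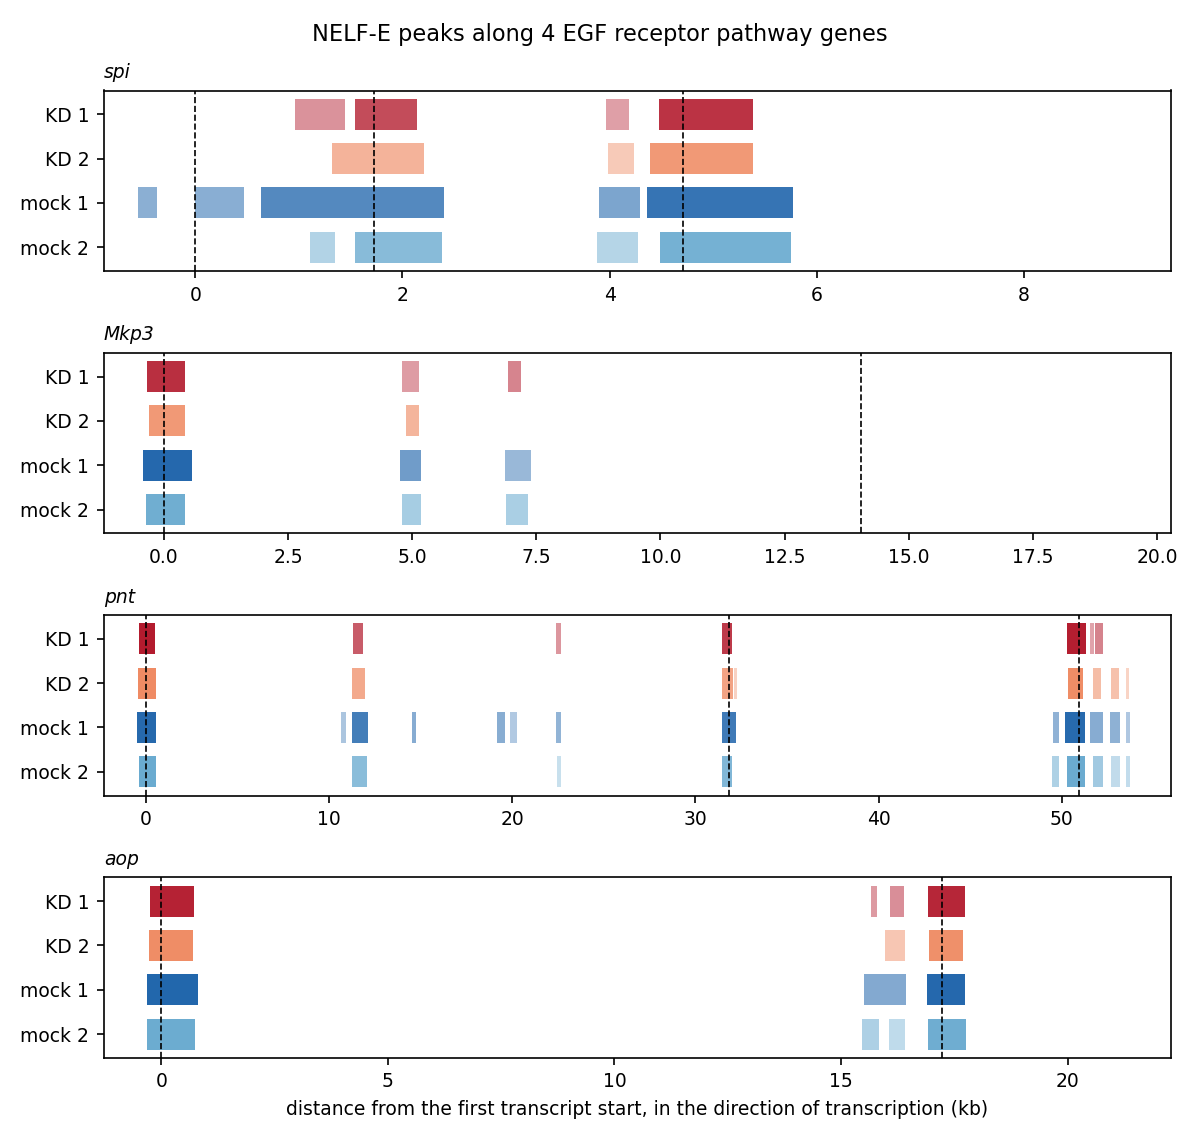
Peaks along spi, Mkp3, pnt and aop in the 2 AGO2 knockdown and 2 mock libraries (rows), drawn by distance from the most upstream annotated start (x axis, kb), with dashed lines at the annotated starts and darker bars for higher percentiles. All 3 pnt starts and both aop starts lie under peaks in all 4 libraries, and the downstream Mkp3 start lies under none.

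Over the gene bodies alone, the members carried 24 and 22 peaks in knockdown cells, against 32 and 28 in mock cells, a mean of 23.0 ± 1.41 against 30.0 ± 2.83 (SD, n = 2 each, two-sided exact permutation p = 0.333, the smallest possible). Peaks at start windows numbered 20 and 18, against 20 and 21, and those outside numbered 4 and 4, against 12 and 7. When each list was cut to its 5904 highest-scoring peaks, the difference of 7.0 shrank to 0.5 peaks.

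Of 27 other genes of the pathway, 22 had a start peak in all 4 libraries, against the 41.7% of protein-coding genes given above. Among the ligands and their processing factors it was 3 of 5, among adaptors and the cascade 11 of 12, among other receptor regulators 3 of 5, and among nuclear factors 5 of 5. The genes with no start peak in any library were ru and stet, which encode further rhomboid proteases, rl, which encodes ERK, and fred, a relative of the receptor antagonist ed. The gene kek2, of the same family as kek1, had a weak start peak in knockdown replicate 1 and both mock libraries, at percentile 20.2 in the knockdown library and 40.9 and 18.9 in mock cells. The highest mean percentiles were those of edl at 98.8, ttk at 97.9 and kek5 at 97.3, and kek5, edl, cic and ttk lay above percentile 90 in all 4 lists. The gene edl encodes a small protein that binds Pointed and Yan, and ttk a repressor of neural fate.

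The lowest mean percentiles were those of ed at 43.2, Raf at 47.8 and Dsor1, the MEK gene, at 56.7. The Raf values came from different places. The summit lay 78 and 1248 bp past a start in the knockdown libraries, 2075 bp before one in mock replicate 1 and 1129 bp past one in mock replicate 2. By percentile, both knockdown values lay above both mock values for 5 of the 22 genes and below for 4, against the 6.88% and 43.1% of all genes. By fold the counts were 15 and 1, against 32.6% and 14.9% of all genes, and by ceiling-adjusted height 6 and 4, against 12.8% and 27.0%. Raf and Shc are among the genes counted below by percentile and by ceiling-adjusted height. The Shc summit lay 123 bp past its start in knockdown replicate 1, but 358 bp before it in knockdown replicate 2. In the mock libraries it lay 364 and 368 bp before the start. For these 2 genes the libraries were thus compared at unlike positions. As among the members, the counts changed with the measure.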

How the data were processed

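NELF-E ChIP-seq was done in 2 AGO2 knockdown and 2 mock libraries, grouped by their titles. Input libraries (4) come without peak lists and are not analysed here on their own. They enter through the authors' peak calls against input, so the local background and the fold depend on them. Reads were trimmed by the authors with cutadapt (1.10), aligned to dm6 with Bowtie2, kept at mapping qualities of at least 20, cleared of duplicates with Picard (2.11.0) and used to call peaks against input with MACS2 (2.1.1.20160309), per library. The versions are from the submitters' processing notes. Genome size and fragment length of these calls are not given in the sources used here. The deposited score is the −log10 q-value times 10, truncated. The fold deposited by the authors is the summit pileup over the local background, each with a constant of 1 added, and in mock replicate 1 both are on a scale of 0.919 per fragment, recovered from the values. The deposited −log10 p-value and −log10 q-value belong to the summit. Without region counts, the authors' DiffBind and edgeR model was not fitted.

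Summit fragments were the whole number that reproduced both fold and p-value, with a relative tolerance of 0.001, and 100.0% of peaks matched. As depth served the genome-wide background, the smallest value that 1% or more of a library's peaks had in common. With ceiling C and n fragments at a summit, the adjusted height was −C ln(1 − n/C) over that background, with n held at least 0.5 below C. This is meant to correct for positions hit more than once, rests on the inferred ceiling and is imprecise near C. It was added after the data were seen. Intervals were not formed, since the spread between 2 replicates is the error given. The labels do not say that replicates came from separate cultures, so p-values measure only the spread between these samples. Percentiles were ranks by q-value within a list. The scripts were tested on simulated data.

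The members and lists were chosen with earlier results of these data known. All 10 members are named. Of the other pathway genes, those with no start peak, those with one in only some libraries, and the 3 highest and 3 lowest by mean percentile are named, as are genes whose start lies under a peak of a member. In addition, cic and Shc were named after their values were seen. Gap1 and phl were matched to RasGAP1 and Raf by RefSeq synonyms. Transposable element entries were left out. Python 3.11.15, pandas 2.3.3 and scipy 1.17.1 were used. The alternatives were another start window, threshold, list length, measure and pairing, and leaving out each library.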

Additional observations from a re-analysis of the deposited data

How the results depend on the processing

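Of 74 alternative values, 60 kept their direction and side of the threshold, 9 counts moved by over 1.5 times and 5 reversed. The count of members with a start peak in every library was 9 under every alternative run, and that of other pathway genes, 22, was 20 with a peak covering the start, 19 with a summit within 250 bp and 23 without AGO2 knockdown replicate 2. The summit position stayed within the spread between replicates. The difference in peak number, -7.0, kept its sign but was -0.5 with lists of one length. The median percentile difference over the members, -1.18, reversed to 0.686 when percentiles were taken over the genes bound in every library and to 0.296 when lists were cut to one length. On a log2 scale it was 0.562 by fold, 0.595 by depth-scaled fragments and 0.138 by ceiling-adjusted height, the last chosen after seeing the data. The count of members higher in knockdown, 3, became 7 by fold, 6 by depth-scaled fragments and 1 by ceiling-adjusted height. The count lower in knockdown, 3, became 1 over shared genes, 1 by fold, 0 by depth-scaled fragments and 1 with lists of one length. Shares over all genes were computed for the main percentile, fold and ceiling-adjusted counts alone, so the other counts have no such comparison. The cause of these shifts was not tested.

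Leaving out 1 library at a time leaves a single library in a group, where groups separate more easily. Counts of members higher or lower in knockdown are therefore not given for it. The median percentile difference then ran from -2.26 to -0.0919, the difference in peak number from -9.0 to -5.0 and the summit position from 15.7 to 22.7 bp. With the replicate block, in which libraries of the same number are paired, 3 members were higher and 4 lower, with a median difference of -1.18. The share over all genes was not computed for these counts. The replicate numbers are shared labels only: deviations of same-numbered libraries correlated at -0.081 in percentile over genes. Depth limits all of these comparisons, since each mock library was deeper, and near the ceiling of 294 fragments heights are imprecise.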
